A study of Homo sapiens with 24 samples.

Results

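The NRF2 detoxification genes of A549 cells were taken as a named list of 36 genes, which holds NFE2L2, the gene of the transcription factor NRF2, its repressor KEAP1, and 34 genes of detoxification, glutathione, thioredoxin, NADPH, heme and iron metabolism. All 36 were found among the 42072 genes and unassigned transcripts of the count table, and all 36 were among the 19897 that passed the filter on low counts. Genes entered the list by name, and no measured value was used in the rule, although the list was chosen with earlier results of these data known. A549 is a cell line derived from a human lung adenocarcinoma, and it was kept in F-12K medium with 10% fetal bovine serum. The cells received 100 nM of the synthetic glucocorticoid dexamethasone (dex) in ethanol, or the same volume of ethanol alone (EtOH, 0.02% of the medium), and were harvested after 1, 3, 5, 7, 9 or 11 h. Each of the 12 groups had 2 libraries (24 together). The duration label was used for time, since the treatment text of the labels gives 1 h for every library. One cell line was used throughout, and libraries of a group are labelled biological replicates, so p-values measure the spread between these libraries.

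NRF2 is a transcription factor that, with a small MAF protein, binds the antioxidant response element and switches on genes that supply glutathione, thioredoxin and NADPH and that reduce or export reactive compounds. In unstressed cells KEAP1 holds NRF2 and hands it to a ubiquitin ligase, which keeps the pathway low. A549 cells are known to carry a loss-of-function mutation of KEAP1, so the pathway is active in them without added stress, and they are a common model of NRF2-driven lung cancer. Gene counts do not show the genotype, and the mutation was not checked here.

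The libraries held between 6708864 and 13748598 counts, and the glucocorticoid-induced genes FKBP5 and TSC22D3 were higher in every dex library than in every EtOH library of the same time point, which matched the labels. Of the 6 epithelial markers searched, all 6 had at least 10 counts in a library, and their summed level lay between 3915 and 6425 CPM (counts scaled to the plain library total) in EtOH and between 4582 and 12177 in dex. On the same CPM scale, the summed level of the immune markers lay between 3.11 and 6.59 in dex and between 3.53 and 6.13 in EtOH, with CD3E at 0 in all libraries. The fibroblast sum lay between 6.26 and 23.0 in dex and between 11.6 and 21.1 in EtOH, and the endothelial sum was at most 1.07 in any library. Most of the epithelial sum came from KRT7, KRT8 and KRT18, of the immune sum from CD68 and of the fibroblast sum from COL1A1. In the mean dex effect over 1 to 11 h (test below), 4 of the 6 epithelial markers rose and 2 fell. Of all features, 16.4% rose and 17.6% fell. The part of these differences in the results was not tested.

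Promoter sequences from RefSeq (GRCh38.p14, windows of 300 bases that end just after a start site) were searched for the core of the antioxidant response element, TGACNNNGC, on both strands. Of the 36 genes, 28 had an entry, and 10 of these held the core in at least 1 window, against 16.1% of 27305 genes with an entry. The 10 genes were KEAP1, CBR1, EPHX1, CYP4F11, PGD, ME1, GCLM, GPX2, TXNRD1 and PIR. The AP-1 site TGACTCA, which the core can contain, was found for 3 genes (ME1, OSGIN1 and PIR), against 6.05% of all genes, and the glucocorticoid response element core ACANNNTGT for 2 (AKR1C1 and AKR1C2), against 6.54%. AKR1B10, CBR3, ALDH3A1, GSR, SLC7A11, HMOX1, FTH1 and ABCC3 had no entry. A match of these letters is a description and not a measured binding site. The windows of 4 genes that hold the core and fell in dex, chosen after their values were seen, are shown as examples, with each match in capitals.
GCLM (chr1:93909381-93909680, - strand): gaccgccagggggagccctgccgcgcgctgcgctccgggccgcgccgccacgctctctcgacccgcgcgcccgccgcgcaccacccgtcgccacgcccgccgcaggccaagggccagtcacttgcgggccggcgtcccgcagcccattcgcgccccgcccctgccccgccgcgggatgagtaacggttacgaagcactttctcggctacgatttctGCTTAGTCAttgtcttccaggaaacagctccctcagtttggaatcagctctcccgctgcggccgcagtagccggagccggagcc
TXNRD1 (chr12:104215529-104215828, + strand): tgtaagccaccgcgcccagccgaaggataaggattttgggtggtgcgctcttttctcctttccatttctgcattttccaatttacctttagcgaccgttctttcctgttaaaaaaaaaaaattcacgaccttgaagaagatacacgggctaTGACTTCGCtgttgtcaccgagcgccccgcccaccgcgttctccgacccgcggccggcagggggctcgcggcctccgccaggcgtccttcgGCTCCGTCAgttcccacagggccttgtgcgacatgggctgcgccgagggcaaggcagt
GPX2 (chr14:64942696-64942995, - strand): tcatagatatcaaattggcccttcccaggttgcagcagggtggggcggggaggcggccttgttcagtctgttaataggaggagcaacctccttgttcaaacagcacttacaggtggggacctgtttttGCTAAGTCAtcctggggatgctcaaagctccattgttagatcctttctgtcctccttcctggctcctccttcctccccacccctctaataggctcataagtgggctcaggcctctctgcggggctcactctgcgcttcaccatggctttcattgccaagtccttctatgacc
CYP4F11 (chr19:15934818-15935117, - strand): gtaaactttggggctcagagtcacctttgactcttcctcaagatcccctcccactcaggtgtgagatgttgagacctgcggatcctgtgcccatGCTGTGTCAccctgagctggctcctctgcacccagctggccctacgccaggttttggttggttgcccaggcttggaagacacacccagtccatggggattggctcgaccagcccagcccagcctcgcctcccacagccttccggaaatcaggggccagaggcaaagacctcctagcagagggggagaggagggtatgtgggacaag
The match began at position -34 from the start for GCLM (TGACTAAGC on the reverse of the printed strand), at -99 for TXNRD1 (TGACTTCGC), at -122 for GPX2 (TGACTTAGC, reverse) and at -156 for CYP4F11 (TGACACAGC, reverse). TXNRD1 and CYP4F11 each had a further window in the table, and the TXNRD1 window shown held a further match.

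Several of the 36 genes were among the highest of the cell line. Levels are given as RPKM, which scales each transcript's count to its length and to the library size, and were ranked among 15337 genes in EtOH. ALDH1A1, which oxidises retinal and other aldehydes, ranked 3 of all genes at 9823 ± 575 RPKM (SD, n = 12), and FTL, the ferritin light chain, ranked 7 at 4851 ± 336. The aldo-keto reductase AKR1C3 ranked 25 (1691 ± 94.3), above AKR1B10 (1389.5 ± 133), AKR1B1 (1256 ± 94.5) and the quinone reductase NQO1 (1255 ± 103). This order depended on the length used. With the length of the most counted transcript alone, AKR1C3 lay below AKR1B10 and AKR1B1, and NQO1 lay lowest of these. With each transcript scaled to its own length, AKR1B1 and NQO1 did not differ beyond their spread between libraries. Neither did PGD (657 ± 128) and the thioredoxin reductase TXNRD1 (657 ± 30.2). This spread takes in the 6 time points, between which PGD differed in EtOH (below), and so is not that of replicates alone. The spread does not cover the choice of length, and with the most counted transcript alone PGD lay below TXNRD1. FTH1, the ferritin heavy chain, lay at 933 ± 112 RPKM. In all, 11 of the 36 genes ranked in the top 1% of genes, the others of these being AKR1C2 (599 ± 45.0) and UGDH (553 ± 46.8), and 12 did so with the length of the most counted transcript alone. The regulators were lower, with NFE2L2 at 71.5 ± 5.63 RPKM (rank 1111) and KEAP1 at 15.9 ± 1.80 (rank 4748). The lowest levels were those of CYP4F11 (9.47 ± 1.28), OSGIN1 (3.22 ± 1.10) and CBR3 (1.18 ± 0.362). CBR3 rested on 3 to 23 counts per library.

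**Figure D1:**
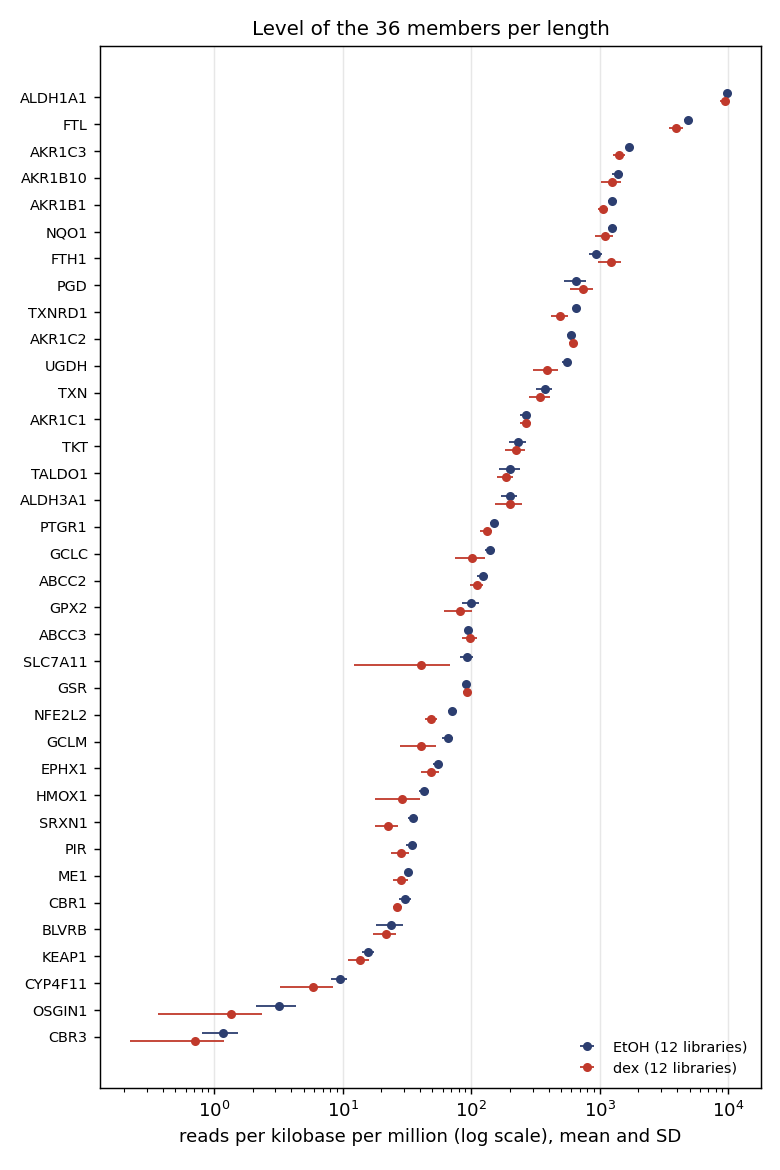
Level of each of the 36 genes in RPKM on a log axis, as mean and SD over the 12 EtOH libraries (blue) and the 12 dex libraries (red). ALDH1A1 and FTL lie at the top, and SLC7A11 has one of the wider dex ranges, with a mean over all 6 time points.

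The 36 genes together held a smaller share of all counts after dex. In bulk RNA a change in the cells present and a change in the RNA of each cell cannot be told apart. Their share lay between 3.80% and 4.13% in the 12 EtOH libraries (median 3.99%) and between 3.14% and 4.005% in the 12 dex libraries (median 3.45%). At 1 h the dex libraries held 3.77% and 4.005%, and at 9 h they held 3.23% and 3.41% against 3.99% and 4.06% in EtOH. Without ALDH1A1, the most counted of them, the share was between 2.13% and 2.43% in EtOH and between 1.74% and 2.21% in dex. No test was made on the share, and dex and EtOH did not overlap at any time point from 3 h.

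**Figure D2:**
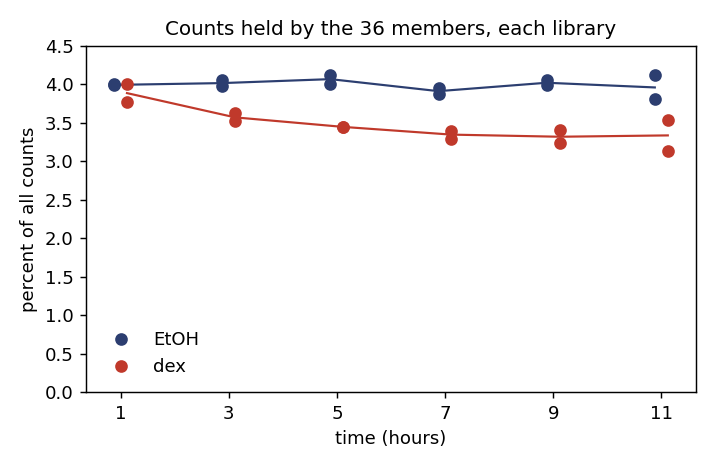
Percent of all counts held by the 36 genes in each library (points) with the mean of the 2 libraries (lines), EtOH in blue and dex in red, by time in hours. The EtOH libraries stay between 3.80% and 4.13%, and the dex libraries fall from 3.77% and 4.005% at 1 h to 3.14% and 3.53% at 11 h.

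The effect of dex was tested at each time point with edgeR's quasi-likelihood test, and a gene was called at a Benjamini-Hochberg adjusted p of at most 0.1. More of the 36 genes fell than rose at each time point from 3 h. At 1 h none was called in either direction by edgeR, against 0.523% of all tested features called higher and 0.342% called lower, and by DESeq2 also none, while 2 (NFE2L2 and TALDO1, both lower) had an unadjusted p under 0.05. At 3 h 11 fell and 5 rose, against 5.29% of all features lower and 7.66% higher. At 5 h 20 fell and 2 rose (all features 11.9% lower and 11.2% higher), and at 7 h 22 fell and 2 rose (12.4% lower and 13.4% higher). At 9 h 22 fell and none rose (8.42% lower and 9.79% higher), and at 11 h 10 fell and none rose (3.27% lower and 5.31% higher). DESeq2 also called no gene higher at 9 or 11 h, and FTH1 alone was higher there at an unadjusted p under 0.05 by edgeR, 1 gene at each. The median log2 fold change of the 36 genes was -0.02, -0.15, -0.30, -0.30, -0.42 and -0.21 at the 6 time points in order, while the median of all tested features was between -0.01 and 0.00. The time points differed in precision, with a common biological coefficient of variation from 6.48% at 7 h to 12.7% at 11 h. The count of genes that fell at 9 h was 8 without dex replicate 1 and 8 without dex replicate 2, and that at 11 h was 18 without dex replicate 1. With the 3 h dex replicate 1 left out, 1 gene rose in place of 5, and 2 rose without the 3 h EtOH replicate 1. Leaving out the 9 h EtOH replicate 2 gave 5 genes that rose at 9 h, the 9 h EtOH replicate 1 gave 1, and leaving out the 11 h dex replicate 1 gave 4 at 11 h. At 5 h 1 gene rose without dex replicate 1 or EtOH replicate 2, and at 7 h 1 rose without dex replicate 2. At 1 h 1 gene was called lower without dex replicate 1 and 1 without dex replicate 2, and 1 was called higher without dex replicate 2.

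**Figure D3:**
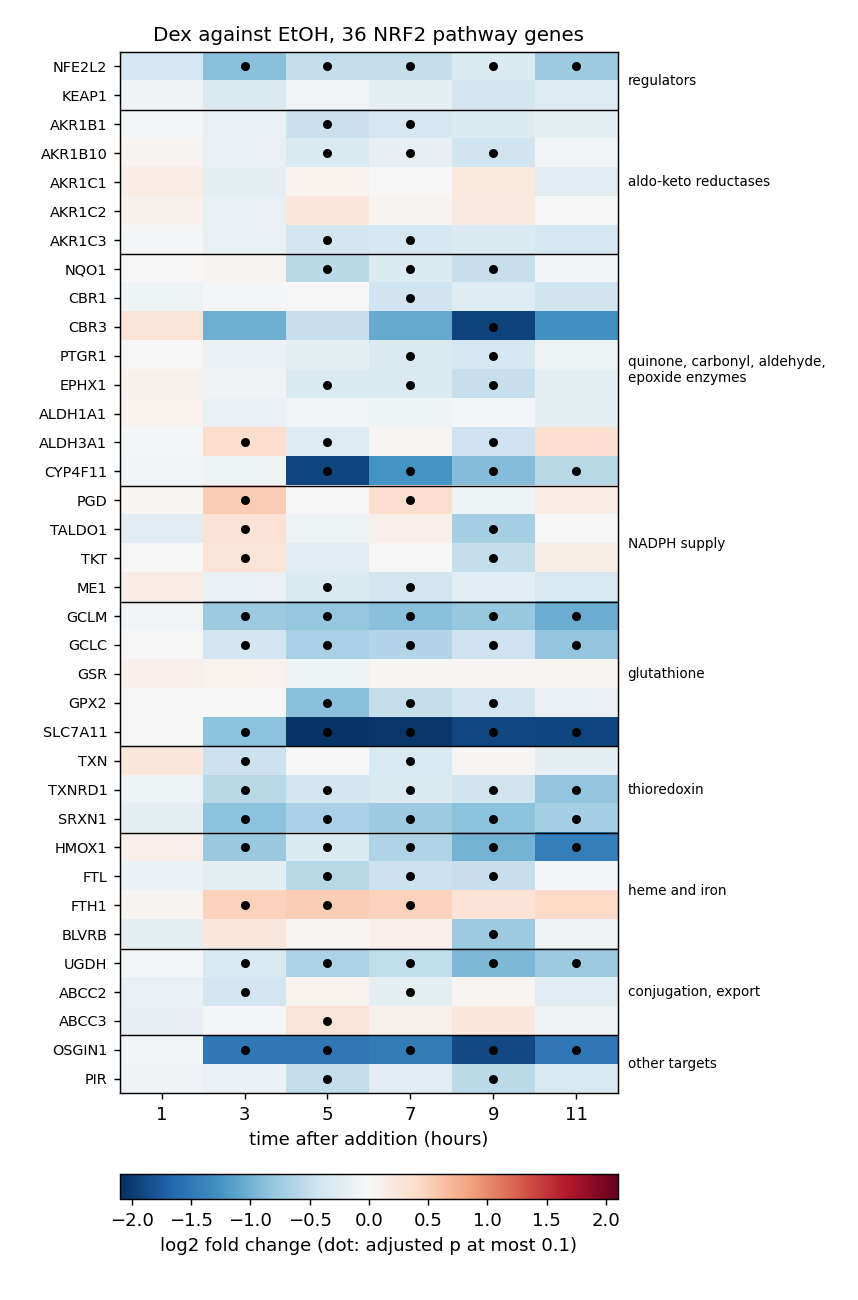
Log2 fold change of dex against EtOH for the 36 genes (rows, grouped by role) at 1 to 11 h (columns), with blue for lower and red for higher in dex and a dot where the adjusted p was at most 0.1. Blue dominates from 5 h, SLC7A11 is the darkest row at -2.06 at 5 h, and FTH1 is red at all time points from 3 h.

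Over the whole course, 25 of the 36 genes had a lower and 2 a higher mean dex effect, against 17.6% and 16.4% of all features. At 2 or more consecutive time points 19 of the 36 genes were called lower and 1 higher, where 8.63% and 9.7% of all features were. In 15 genes both dex libraries lay below both EtOH libraries at 5 or 6 time points (5.53% of all features), and in NFE2L2, CYP4F11 and SRXN1 they did so at all 6 (1.3%). Calls began at 3 h for 16 genes and at 5 h for 11, at 7 h for CBR1 and PTGR1, and at 9 h for CBR3 and BLVRB. In the reported fits KEAP1, AKR1C1, AKR1C2, ALDH1A1 and GSR were called at no time point. The 2 genes with a higher mean effect were FTH1 and PGD, and the call of PGD (edgeR adjusted p = 0.0694) was lost when any of 13 single libraries was left out, with values from 0.12 to 0.16 on the log2 scale.

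NFE2L2 (chr2:177227595-177392697, - strand, GRCh38), which encodes NRF2, was lower in dex than in EtOH at each time point. At 1 h it was counted at 139.5 and 140.0 normalised CPM (counts scaled to the TMM-adjusted library size) in EtOH and at 116 and 99.5 in dex, a difference that did not pass (log2 fold change -0.36 ± 0.12 (SE), edgeR adjusted p = 0.314), although it passed with offsets for GC content (-0.42, edgeR adjusted p = 0.0177), which were added after seeing the data. At 3 h it was at 162 and 166 in EtOH and 89.5 and 89.2 in dex. That was its largest change, 1.85-fold lower, with a log2 fold change of -0.89 ± 0.10 (edgeR adjusted p = 5.46e-08). It was called lower at the other 4 time points as well, and both dex libraries lay below both EtOH libraries at all 6. KEAP1 (chr19:10486120-10503741, - strand, GRCh38), which targets NRF2 for degradation, was at 22.8 and 27.2 in EtOH and 18.7 and 19.1 in dex at 9 h, its largest change (log2 fold change -0.39 ± 0.15, edgeR adjusted p = 0.108). Its 11 h dex libraries lay far apart, at 15.6 and 29.02, around the EtOH values of 27.7 and 26.0. In the reported fits KEAP1 passed in the mean over the course and at no single time point (log2 effect -0.21 ± 0.08, edgeR adjusted p = 0.0464), and not there without the 1 h dex replicate 1 (-0.17, adjusted p = 0.112). At 9 h it passed without EtOH replicate 1 (-0.51, adjusted p = 0.00719). With the GC-content offsets KEAP1 passed as lower at 3 h (-0.45, edgeR adjusted p = 0.0274) and 7 h (-0.32, edgeR adjusted p = 0.0885). Of the 50-base words in the NFE2L2 transcripts, 14.1% also occur in the gene AC019080.1, and reads of the 2 genes there cannot be told apart.

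**Figure D4:**
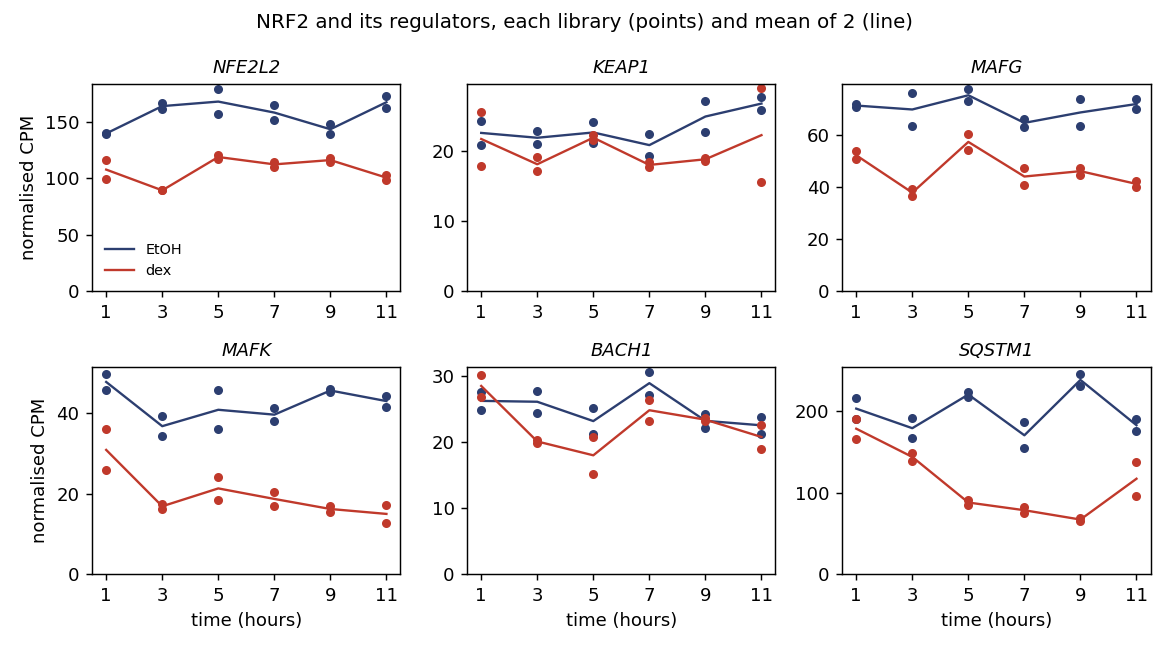
Normalised CPM of NFE2L2, KEAP1, MAFG, MAFK, BACH1 and SQSTM1 in each library (points) with the mean of the 2 libraries (lines), EtOH in blue and dex in red, by time in hours. The NFE2L2 points of dex stay below those of EtOH at all 6 time points, and the KEAP1 points overlap at 1, 5 and 11 h.

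The glutathione genes held the largest fall of the 36. SLC7A11 (chr4:138164097-138242349, - strand, GRCh38), the cystine importer that feeds glutathione synthesis, was at 652 and 642 in EtOH and 729 and 568 in dex at 1 h. At 3 h EtOH held 674 and 641 and dex 347 and 380.2, and at 5 h EtOH held 498 and 585 and dex 148 and 113. The 5 h difference was a 4.17-fold lower level (log2 fold change -2.06 ± 0.12, edgeR adjusted p = 2.84e-15), and the level stayed near it to 11 h, with 588 and 593 in EtOH and 177 and 133 in dex. GCLM and GCLC, the modifier and catalytic subunits of glutamate-cysteine ligase, which makes the first intermediate of glutathione, both fell at 5 time points from 3 h. GCLM (chr1:93885205-93909456, - strand, GRCh38) at 11 h was at 303 and 294 in EtOH and 181 and 109 in dex (log2 fold change -1.05 ± 0.19, edgeR adjusted p = 0.00351). GCLC at 11 h was at 418 and 377 in EtOH and 276 and 170.1 in dex (log2 fold change -0.84 ± 0.19, edgeR adjusted p = 0.0154). The 2 dex libraries of 11 h differed for both subunits and replicate 2 was the lower. Without it the log2 fold change of GCLC was -0.52, and without replicate 1 it was -1.22.

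GPX2, a glutathione peroxidase of epithelial cells, showed a fall that was largest at 5 h and then narrowed. At 3 h it was at 81.0 and 92.1 in EtOH and 101.3 and 74.5 in dex, which overlapped. At 5 h it was at 109 and 90.2 in EtOH and 58.0 and 49.97 in dex (1.84-fold lower, log2 fold change -0.88 ± 0.12, edgeR adjusted p = 4.55e-08). By 11 h the libraries overlapped again, at 106 and 91.7 in EtOH and 82.7 and 98.0 in dex. GSR, the reductase that regenerates glutathione, was called at no time point and its mean effect was 0.02 ± 0.04 (edgeR adjusted p = 0.735). Of the 5 glutathione genes, 4 fell in the mean over the course, against 17.6% of all features, with a median mean effect of -0.49 over the 5.

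**Figure D5:**
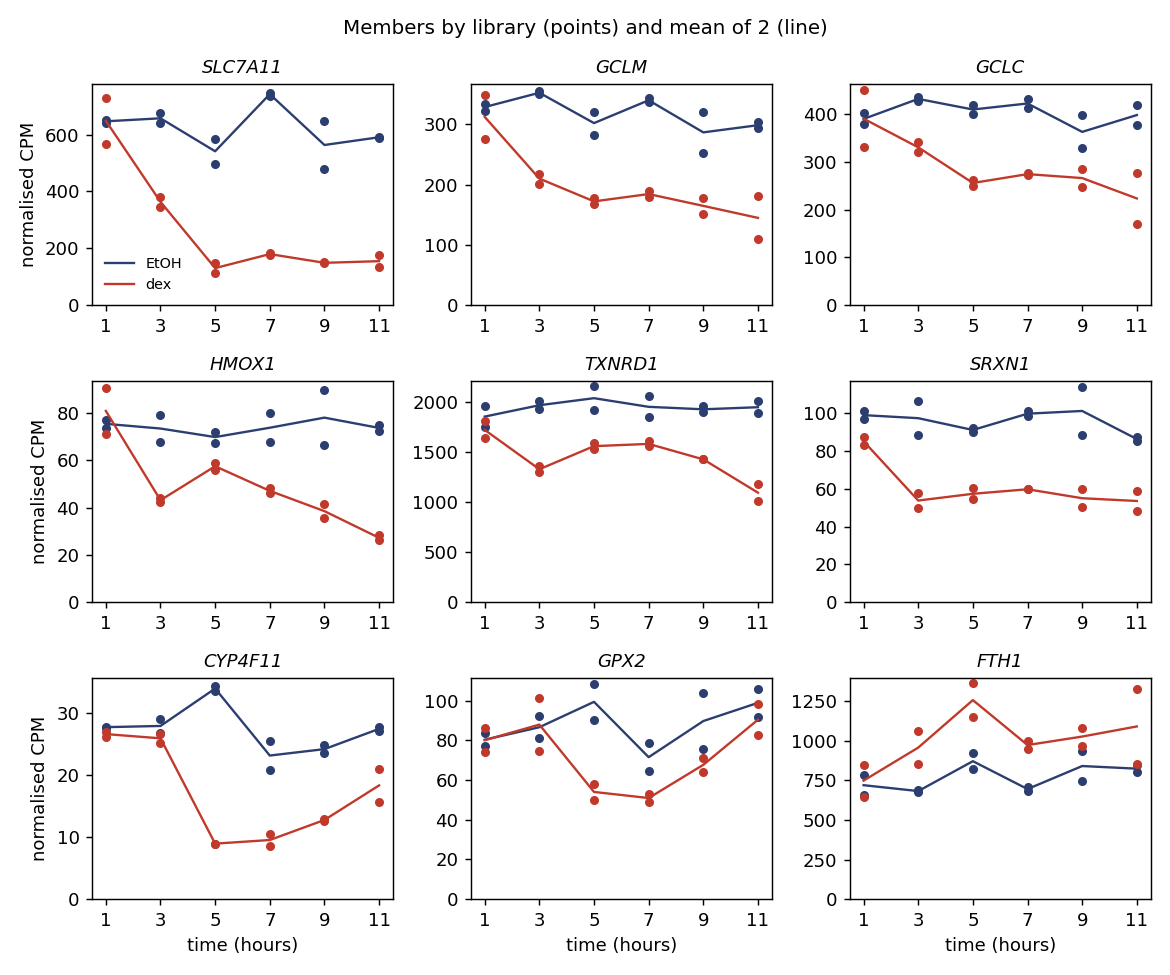
Normalised CPM of SLC7A11, GCLM, GCLC, HMOX1, TXNRD1, SRXN1, CYP4F11, GPX2 and FTH1 in each library (points) with the mean of the 2 libraries (lines), EtOH in blue and dex in red, by time in hours. From 5 h the SLC7A11 dex points lie between 113 and 185 while EtOH lies between 479 and 748, the CYP4F11 dex mean is lowest at 5 h, and FTH1 alone lies above EtOH.

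In the thioredoxin system, TXNRD1, which reduces thioredoxin with NADPH, fell at 5 time points. At 11 h TXNRD1 was at 2007 and 1888 normalised CPM in EtOH and 1179.8 and 1008 in dex (log2 fold change -0.84 ± 0.14, edgeR adjusted p = 0.00203). Its difference was smaller at 7 h, with 1846 and 2057 in EtOH and 1556 and 1606 in dex (log2 fold change -0.30 ± 0.07). SRXN1, sulfiredoxin, which repairs overoxidised peroxiredoxins, was lower in dex at all 6 time points and called from 3 h. At 3 h SRXN1 was at 106 and 88.3 in EtOH and 49.96 and 57.5 in dex (1.82-fold lower, log2 fold change -0.86 ± 0.12, edgeR adjusted p = 1.69e-06). Of its 50-base words, 84.8% also occur in the gene AL121758.1, so its count is uncertain in level and its fall cannot be assigned to SRXN1 alone. TXN, thioredoxin itself, was called lower at 3 h (-0.44) and 7 h (-0.32) and not in the mean (edgeR adjusted p = 0.376). Without the filter on low counts its mean effect passed as lower (-0.12, edgeR adjusted p = 0.0414).

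Among the heme and iron genes the ferritin chains went in opposite directions. FTL at 5 h was at 4211 and 4472 normalised CPM in EtOH and 2761 and 3085 in dex (log2 fold change -0.58 ± 0.10, edgeR adjusted p = 2.57e-05). FTH1 at 5 h was at 921 and 823 in EtOH and 1363 and 1152 in dex, 1.44-fold higher (log2 fold change 0.52 ± 0.11, edgeR adjusted p = 0.000144). FTL was called lower at 5, 7 and 9 h and FTH1 higher at 3, 5 and 7 h, with both FTH1 dex libraries above both EtOH libraries at 5 time points. HMOX1, which cleaves heme to biliverdin, iron and carbon monoxide, fell at 3 h (-0.78), less at 5 h (-0.28), and the most at the last time point. At 1 h it was at 73.7 and 77.1 in EtOH and 71.3 and 90.5 in dex, which overlapped. At 11 h it was at 74.8 and 72.6 in EtOH and 26.2 and 28.3 in dex (2.71-fold lower, log2 fold change -1.44 ± 0.15, edgeR adjusted p = 3.35e-05). BLVRB, a biliverdin reductase, was called lower at 9 h alone, with 21.0 and 33.9 in EtOH and 13.2 and 18.1 in dex.

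The aldo-keto reductases, which reduce aldehydes, ketones and steroids, had small changes at high levels. AKR1B1, AKR1B10 and AKR1C3 fell in the mean over the course, by 0.25, 0.18 and 0.27 on the log2 scale, and each was called lower at 5 and 7 h. AKR1B1, aldose reductase, at 5 h was at 2018 and 1924 normalised CPM in EtOH and 1475 and 1398 in dex (log2 fold change -0.46 ± 0.10, edgeR adjusted p = 0.000503). AKR1B10, which reduces retinal and lipid aldehydes, at 9 h was at 2094 and 2351 in EtOH and 1633 and 1683 in dex (log2 fold change -0.41 ± 0.11, edgeR adjusted p = 0.0249). In these comparisons the dex libraries lay below the EtOH libraries without overlap. AKR1C3 at 7 h was at 1909.8 and 1901 normalised CPM in EtOH and 1450.0 and 1513 in dex (log2 fold change -0.36 ± 0.07, edgeR adjusted p = 0.000153). AKR1C1 and AKR1C2 were called at no time point, with mean effects of 0.00 ± 0.04 and 0.06 ± 0.04 (edgeR adjusted p = 0.983 and 0.25), although AKR1C2 passed as higher in the mean without the 9 h EtOH replicate 2 (0.10, adjusted p = 0.0309). With the GC-content offsets AKR1C2 passed as higher at 5 h (0.26, edgeR adjusted p = 0.0328). AKR1C1 and AKR1C2 share 50-base words with each other (26.6% of those of AKR1C1 and 43.2% of those of AKR1C2). AKR1C1, AKR1C2 and AKR1C3 lie side by side on chr10, and their summed count had a mean effect of -0.12 ± 0.04 (edgeR adjusted p = 0.0132).

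Of the 8 quinone, carbonyl, aldehyde and epoxide enzymes 6 fell in the mean over the course, against 17.6% of all features. CYP4F11, a fatty acid and vitamin K hydroxylase, changed between 3 and 5 h. At 3 h it was at 29.1 and 26.8 normalised CPM in EtOH and 25.2 and 26.6 in dex, and at 5 h it was at 33.5 and 34.4 in EtOH and 8.96 and 8.96 in dex. The 5 h level was 3.80-fold lower (log2 fold change -1.93 ± 0.16, edgeR adjusted p = 8.3e-14), and by 11 h dex had come back to 15.7 and 21.0 against 27.1 and 27.8 in EtOH. NQO1, which reduces quinones to hydroquinones, at 5 h was at 1776 and 1797 in EtOH and 1144 and 1278 in dex (log2 fold change -0.57 ± 0.10, edgeR adjusted p = 2.67e-05). NQO1 at 11 h was at 1631 and 1525 in EtOH and 1546 and 1499 in dex, close together. The carbonyl reductase CBR3 had few counts, and its fall at 9 h, with 1.07 and 1.32 in EtOH and 0.431 and 0.225 in dex (log2 fold change -1.94 ± 0.61, edgeR adjusted p = 0.048), was lost without dex replicate 1 (adjusted p = 0.123) or dex replicate 2 (adjusted p = 0.421). CBR1, PTGR1 and the epoxide hydrolase EPHX1 had mean effects of -0.21, -0.18 and -0.21, each of which passed. EPHX1, which opens epoxides to diols, at 9 h was at 75.8 and 99.0 in EtOH and 59.5 and 63.7 in dex (log2 fold change -0.49 ± 0.14, edgeR adjusted p = 0.0243). PTGR1, which reduces unsaturated carbonyls, at 9 h was at 219 and 234 in EtOH and 175 and 172 in dex (log2 fold change -0.37 ± 0.11). CBR1 was called at 7 h alone, with 41.9 and 48.0 in EtOH and 33.9 and 33.7 in dex. In all 3 genes the libraries of these time points did not overlap. ALDH1A1 at 11 h was at 18238 and 15327 in EtOH and 16979.8 and 12417 in dex, with replicate 2 the lower in each. ALDH1A1 was called at no time point and its mean effect was -0.07 ± 0.05 (edgeR adjusted p = 0.27); without the 11 h dex replicate 1 it was -0.11 and passed (adjusted p = 0.0244).

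The NADPH-supplying genes did not move as 1 group. PGD, TALDO1 and TKT, of the pentose phosphate pathway, were called higher at 3 h, together with the aldehyde dehydrogenase ALDH3A1. TALDO1 at 3 h was at 194 and 237 normalised CPM in EtOH and 273 and 261 in dex (log2 fold change 0.30 ± 0.10, edgeR adjusted p = 0.0595). At 9 h TALDO1 was at 287 and 333 in EtOH and 184 and 196 in dex, in the opposite direction (log2 fold change -0.69 ± 0.11, edgeR adjusted p = 0.000599). At 7 h TALDO1 was at 169 and 193 in EtOH and 195 and 195 in dex. From 7 to 9 h the EtOH values thus moved more than the dex values, and TALDO1 was called for drift in EtOH. TKT at 9 h was at 535 and 631 in EtOH and 391.9 and 422 in dex. TKT (-0.51) and ALDH3A1 (-0.43) were also called lower at 9 h, and ALDH3A1 was called lower at 5 h as well (-0.27). The GC content of the most counted transcript was 56.5% for TALDO1, 58.1% for TKT and 59.8% for ALDH3A1. With offsets for GC content, chosen after seeing these values, their 3 h log2 fold changes were 0.19, 0.16 and 0.21, none of which passed (edgeR adjusted p = 0.187, 0.298 and 0.129). Their 9 h values with these offsets were -0.58, -0.37 and -0.27, each of which passed (edgeR adjusted p = 0.000221, 0.00966 and 0.0854). PGD at 3 h was at 565 and 631 in EtOH and 1003 and 742 in dex, with dex replicate 1 the higher (log2 fold change 0.54 ± 0.11, edgeR adjusted p = 0.00178). ME1, the malic enzyme, was called lower at 5 h (-0.30) and 7 h (-0.39). TALDO1 passed as lower in the mean (edgeR adjusted p = 0.0958), a call lost when any of 16 single libraries was left out, with values from -0.11 to -0.08.

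UGDH, which makes the UDP-glucuronic acid used for glucuronidation, fell at 5 time points. At 9 h UGDH was at 1143 and 915 normalised CPM in EtOH and 516 and 545 in dex (1.92-fold lower, log2 fold change -0.94 ± 0.12, edgeR adjusted p = 7.46e-05). The conjugate exporters ABCC2 and ABCC3 were called in opposite directions, at different time points. ABCC2 was called lower at 3 h (-0.40) and 7 h (-0.19), while ABCC3 was called higher at 5 h, with 364 and 351 in EtOH and 443 and 423 in dex (log2 fold change 0.27 ± 0.10, edgeR adjusted p = 0.051). That was the only call of ABCC3 in the reported fits, and it did not pass at a threshold of 0.05. With the GC-content offsets ABCC3 passed as higher at 5 h (0.25, edgeR adjusted p = 0.0479) and 9 h (0.33, edgeR adjusted p = 0.0286). The log2 fold change of ABCC2 at 5 h was 0.07.

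OSGIN1, an oxidative stress-induced growth inhibitor, fell from 3 h on at low counts, 9 to 96 per library. At 9 h OSGIN1 was at 4.99 and 9.73 normalised CPM in EtOH and 1.29 and 2.33 in dex (3.71-fold lower, log2 fold change -1.89 ± 0.37, edgeR adjusted p = 0.00302). EtOH replicate 2 was the highest of these, and without it the log2 fold change was -1.34. PIR, pirin, a nuclear iron-binding protein, was called lower at 5 h (-0.51) and 9 h (-0.55), with both dex libraries below both EtOH libraries at 5 time points.

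A call at one time point and not at another does not show that the effect differed, so the difference between time points was tested as an interaction over all 24 libraries. It passed for 13 of the 36 genes, against 13.8% of all features. These were NFE2L2, AKR1B10, NQO1, CYP4F11, TALDO1, GCLM, GPX2, SLC7A11, TXNRD1, SRXN1, HMOX1, FTL and UGDH. SLC7A11 ran from 0.01 at 1 h to -2.06 at 5 h (edgeR interaction adjusted p = 2.12e-07), and CYP4F11 from -0.05 at 1 h to -1.93 at 5 h and -0.59 at 11 h (adjusted p = 3.71e-07). For NFE2L2 the effect was largest at 3 h (-0.89) and smallest at 9 h (-0.29, adjusted p = 0.0214). At 11 h FTL (-0.05) and NQO1 (-0.06) lay close to EtOH. The interaction count was 23 without the 11 h dex replicate 1, 20 without the 11 h dex replicate 2 and 21 without the 9 h EtOH replicate 1. GCLC (adjusted p = 0.134) and FTH1 (adjusted p = 0.648) did not pass.

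In EtOH alone, 4 of the 36 genes differed between the time points, against 3.33% of all features. They were TALDO1 (edgeR adjusted p = 0.0185), PGD (0.0185), ALDH3A1 (0.0291) and CYP4F11 (0.0984). PGD in EtOH was at 933 and 777 normalised CPM at 5 h and at 514 and 600.5 at 7 h, and TALDO1 was at 169 and 193 at 7 h and 287 and 333 at 9 h. ALDH3A1 in EtOH was at 212 and 218 at 7 h and 293 and 364 at 9 h. CYP4F11 in EtOH was at 33.5 and 34.4 at 5 h and 20.9 and 25.5 at 7 h. None of the 4 ran in 1 direction from 1 h to 11 h, and between 11 h and 1 h none of the 36 genes was called in EtOH by edgeR (0.211% of all features were), while 4 (NFE2L2, AKR1B10, CBR1 and GPX2) had an unadjusted p under 0.05. The count of 4 was 0 without the 7 h EtOH replicate 1, 14 without the 9 h EtOH replicate 1 and 10 without the 9 h EtOH replicate 2. SLC7A11, GCLM and HMOX1 did not pass for drift (adjusted p = 0.101, 0.277 and 0.944).

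Other genes of the pathway were taken from 3 lists, 10 regulators and partners of NRF2, 30 further NRF2 targets and 12 further antioxidant enzymes, of which 50 in all passed the filter. In the mean over the course, 5 of the 10 regulators fell and 1 rose, 10 of the 29 targets that were tested fell and 6 rose, and of the 11 antioxidant enzymes tested 1 rose. Of all features, 17.6% fell and 16.4% rose, so the numbers that rose in the 3 lists were near or below the background. MAFK, a small MAF partner of NRF2, was already called at 1 h, with 45.7 and 49.6 normalised CPM in EtOH and 25.7 and 35.9 in dex (log2 fold change -0.64 ± 0.15, edgeR adjusted p = 0.0659). MAFG, a further small MAF partner, had a mean effect of -0.61 ± 0.05. SQSTM1, the autophagy receptor p62 that binds KEAP1, at 9 h was at 246 and 231 in EtOH and 68.8 and 65.6 in dex (log2 fold change -1.82 ± 0.11, edgeR adjusted p = 2.57e-08). The nuclear receptor NR0B1 (-1.32), the exporter ABCG2 (-0.48) and TRIM16L (-0.47), a near copy of TRIM16, fell in the mean as well. CYP4F3 (0.90) and the glutaredoxin GLRX (0.65) rose in the mean, and CYP4F3 is a relative of CYP4F11, which fell (0.467% of the 50-base words of CYP4F11 occur in CYP4F3). Of the most abundant genes of these lists, PRDX1, a peroxiredoxin, fell in the mean (-0.20) and MGST1, a microsomal glutathione transferase, rose (0.22).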

How the data were processed

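The RNA-seq libraries of A549 cells used here form 12 groups of 2, grouped by the treatment, duration and replicate labels. The methods of the study describe triplicates, while 2 libraries per group were available here. Per the labels and the methods of the study, the authors made stranded poly-A libraries, mapped single-end reads to transcripts of GENCODE and deposited 1 count per transcript and library, with no division by library size or length; the labels name hg19 and SAMtools. How reads matching several transcripts were placed is not given in the sources used here, which bears on genes that share sequence. Of 119207 transcripts, 110262 were matched by identifier to genes of the GENCODE annotation on GRCh38, and their counts were summed per gene; these held 94.1% of all counts, and unmatched transcripts were kept as features of their own. No sample or column was left out.

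Counts were tested with R 4.3.3 and edgeR 4.0.16 (TMM, filterByExpr over the 12 groups, robust quasi-likelihood F-test, Benjamini-Hochberg over 19897 features, threshold 0.1). Each time point was fitted by itself with 2 dex and 2 EtOH libraries. The mean dex effect and the interaction with time used all 24 libraries, and drift used the 12 EtOH libraries. The SE of a log2 fold change was its size divided by the square root of F. Normalised CPM and RPKM used the TMM-scaled library size, and RPKM divided each transcript by its own length. The scripts were tested on simulated data.

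Values are given in each library for NFE2L2, KEAP1 and the called genes with the largest mean effects at their time of largest change and for genes called for drift. Of the other pathway lists, up to 8 genes called at consecutive times plus the 3 highest are named, by their mean effects or, for MAFK and SQSTM1, library values. One gene that this rule names is not reported here. Library values of other genes were shown after their results were seen. The 36 genes, the lists and the tests were chosen with earlier results of these data known. Alternatives were DESeq2 1.42.0 or its size factors, no filter or 10 counts in every library, a threshold of 0.05, the replicate number as a block, each library left out, 1 fit over 24 libraries, transcripts in place of genes, a linear slope for drift, another length for levels and, chosen after seeing the data, offsets for GC content. Leaving out a replicate number from every group leaves no spread to estimate, so single libraries were left out.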

Additional observations from a re-analysis of the deposited data

Results flagged for a closer look

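The dex effect differed between the 6 time points in the edgeR interaction test for 13 of the 36 genes and for 9 other named genes. Among the 36, the adjusted p (edgeR, Benjamini-Hochberg) was 2.12e-07 for SLC7A11, 3.71e-07 for CYP4F11, 1.4e-05 for HMOX1, 0.000159 for UGDH, 0.0013 for TALDO1 and 0.00194 for NQO1. It was 0.00574 for TXNRD1, 0.0175 for FTL, 0.0214 for NFE2L2, 0.0396 for GPX2, 0.0671 for GCLM, 0.0713 for AKR1B10 and 0.0804 for SRXN1. TALDO1 was the one of these with calls in both directions, from 0.30 at 3 h to -0.69 at 9 h on the log2 scale, and its 3 h value was 0.19 with GC-content offsets. It was also called for drift in EtOH.

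Of the other pathway genes, the interaction adjusted p (edgeR) was 3.44e-07 for SQSTM1, 0.000246 for NR0B1, 0.000271 for TRIM16L, 0.00801 for ABCG2, 0.0202 for MGST1, 0.0509 for MAFK and 0.0969 for CYP4F3. MAFK ran from -0.64 at 1 h to -1.53 at 11 h. The induced genes FKBP5 (5.4e-16) and TSC22D3 (8.43e-05) also differed between time points, with FKBP5 rising from 0.52 at 1 h to 4.15 at 9 h.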

How the results depend on the processing

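Of 152 counts obtained under another setting with all libraries kept, 130 lay within 1.5 times the reported count. The numbers that fell at 3, 5 and 7 h and in the mean did so under each of these settings, and also with any single library left out. For genes that rose at 3 h (5), DESeq2, the replicate block, a threshold of 0.05 and transcripts each gave 3, GC-content offsets 2 and the fit over 24 libraries 1. Genes lower at 1 h (0) were 1 with GC-content offsets, the replicate block and the fit over 24 libraries. Genes that rose at 9 h (0) were 1 without a filter and with the replicate block and 2 with GC-content offsets, and at 11 h (0) they were 1 without a filter and with the replicate block and 2 by transcripts. Genes that rose at 5 h and in the mean (2 each) were 1 at a threshold of 0.05, and at 7 h (2) they were 1 in the fit over 24 libraries. Genes with an effect that differed between time points (13) were 21 without a filter and 23 with GC-content offsets. Genes with drift in EtOH (4) were 12 without a filter and 0 with a linear slope. In the mean effect, TXN and ALDH1A1 (-0.08, edgeR adjusted p = 0.0509) passed as lower without a filter, and TKT (-0.08, edgeR adjusted p = 0.0997) with GC-content offsets. The mean call of TALDO1 was lost with DESeq2 (DESeq2 adjusted p = 0.127) and with 10 counts in every library (edgeR adjusted p = 0.105). Where the alternative did not itself change the features or samples tested, the cause was not tested.

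With 1 library left out, genes that rose numbered 0 to 1 at 1 h, 1 to 6 at 3 h, 1 to 2 at 5 h, 1 to 3 at 7 h, 0 to 5 at 9 h, 0 to 4 at 11 h and 1 to 2 in the mean. Genes that fell numbered 0 to 1, 9 to 11, 16 to 18, 15 to 24, 8 to 27 and 7 to 18 at the 6 time points and 23 to 25 in the mean. Interaction calls numbered 10 to 23 and drift calls 0 to 14. Where 1 library stood against 2, it was taken to vary like the others. The mean effects of AKR1C1 and ALDH3A1, both near 0 and not called, changed sign. AKR1C1 was -0.0041 without a filter and ran from -0.024 to 0.031 without 1 library, and ALDH3A1 was 0.0025 with 10 counts in every library and ran from -0.047 to 0.039 without 1 library.

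The paper calls its ethanol control paired. The deviations of dex and EtOH libraries with the same replicate number had correlations from -0.08 to 0.17 over the 6 time points. These low values cannot settle whether the libraries were paired. The main fits took no pairing, and the replicate block serves as an alternative, which called KEAP1 lower at 9 h (-0.40, edgeR adjusted p = 0.0275).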
